A study of Mus musculus with 6 samples.

Results

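The subject here is the core of the RAS-RAF-MEK-ERK cascade in mouse regulatory T (Treg) cells, given by 7 genes that were chosen by symbol from the 22939 genes of the expression tables: Nras, Araf, Braf, Ksr1, Map2k1, Map2k2 and Mapk3. All 7 were present in the tables, and all 7 passed the filter on low counts that left 13463 genes to test. RNA was sequenced from 3 libraries of untreated control Treg (ctrl-Treg) cells and 3 libraries of Treg cells differentiated in the presence of sorafenib (Sora-Treg). Sorafenib (Sora) is a kinase inhibitor used against liver cancer that was developed as a RAF inhibitor and also blocks VEGF, PDGF and other receptor kinases. Cells of both groups came from mice with GFP knocked into the Foxp3 gene on a C57BL/6J background. Naive CD4+ T cells from spleen and lymph nodes were stimulated through CD3 and CD28 with TGF-β1 and antibodies against IFN-γ and IL-4, and GFP+ cells were sorted. Sora was the only factor named as different between the groups. The labels give neither its dose nor the time, nor the age, sex or number of the animals, and whether replicates came from separate mice or cultures is not stated, so p-values measure the spread between these libraries, which may be technical.

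RAS proteins such as NRAS are small GTPases at the inner face of the membrane that are switched on by exchange factors after the T cell receptor or a growth factor receptor is engaged. Active RAS recruits the RAF kinases ARAF and BRAF, which phosphorylate MEK1 (gene Map2k1) and MEK2 (Map2k2), and these in turn phosphorylate ERK1 (Mapk3). KSR1 is a scaffold that holds RAF, MEK and ERK together. In T cells the cascade carries antigen receptor signals to transcription factors of the AP-1 and ETS families. It is switched by GTP loading and phosphorylation, so transcript levels describe how much of each component is encoded and not how active it is.

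Total counts were between 30727686 and 37717324 per library. Levels are given as CPM, the count of a gene relative to the library total after scaling by the trimmed mean of M-values (TMM). Counts of any pair of replicates were further apart than sampling alone gives (chi-square per degree of freedom between 3.48 and 6.23), so no library was a copy of another. Of 7 T cell and Treg genes (Cd3e, Cd3g, Cd4, Foxp3, Il2ra, Ikzf2 and Ctla4), which summed to between 3747 and 3792 CPM in ctrl-Treg and between 6631 and 6760 CPM in Sora-Treg libraries, 6 were called higher and none lower with TMM scaling. Most of the rise in the sum was from Il2ra (means 1933 and 3793 CPM) and Ctla4 (383 and 1107 CPM). Foxp3 and Cd4 rose by only 0.074 and 0.061 on the log2 scale (edgeR adjusted p = 0.0405 and 0.0416). With libraries scaled by their totals alone, neither was called (edgeR adjusted p = 0.263 and 0.0684). Ikzf2 was then called lower, at -0.095 (edgeR adjusted p = 0.0284). The 7 myeloid genes summed to 93.4 and 93.0 CPM in control replicates 1 and 2 but to 24.9 CPM in control replicate 3, and to between 20.8 and 42.9 CPM in Sora-Treg libraries, and 5 of them were called lower. The 5 B cell genes summed to between 9.70 and 10.7 CPM in ctrl-Treg and between 6.08 and 7.67 CPM in Sora-Treg libraries, and the 4 tested were called lower. The 4 natural killer cell genes went from between 3.27 and 3.48 CPM to between 7.71 and 8.65 CPM, while their defining members Klrb1c and Klra7 had at most 1 count in any library. Cd8a and Cd8b1 together were between 12.6 and 15.1 CPM in all libraries. The scarcer Cd8a was called lower, at -0.71 on the log2 scale (edgeR adjusted p = 0.00872), and Cd8b1 was not called (edgeR adjusted p = 0.749). Erythroid genes had at most 4 counts. The part of B and natural killer cell transcripts in the results was not tested. In bulk RNA, fewer cells of a type and less RNA per cell cannot be told apart.

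Sora-Treg cells carried more Araf, Map2k1 and Mapk3 transcript and less Ksr1 transcript than ctrl-Treg cells, while Nras, Braf and Map2k2 did not pass the test. The 3 genes that rose did so by between 20.2% and 30.9%, and Ksr1 fell by 15.4%. No member reached the 2-fold limit that the study set for a differentially expressed gene. Across all genes tested, 29.7% were called higher and 29.9% lower at an adjusted p under 0.05 (59.6% in either direction), and 11.3% were also past 2-fold. The 4 of 7 members called thus lay near the background. Among the 2400 tested genes with a mean level within the range of the members, 73.4% were called. The groups did not overlap in 4 of the 7 members, against 63.7% of all genes tested. Fold changes, standard errors (SE) and adjusted p-values below are from the quasi-likelihood test of edgeR.

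**Figure D1:**
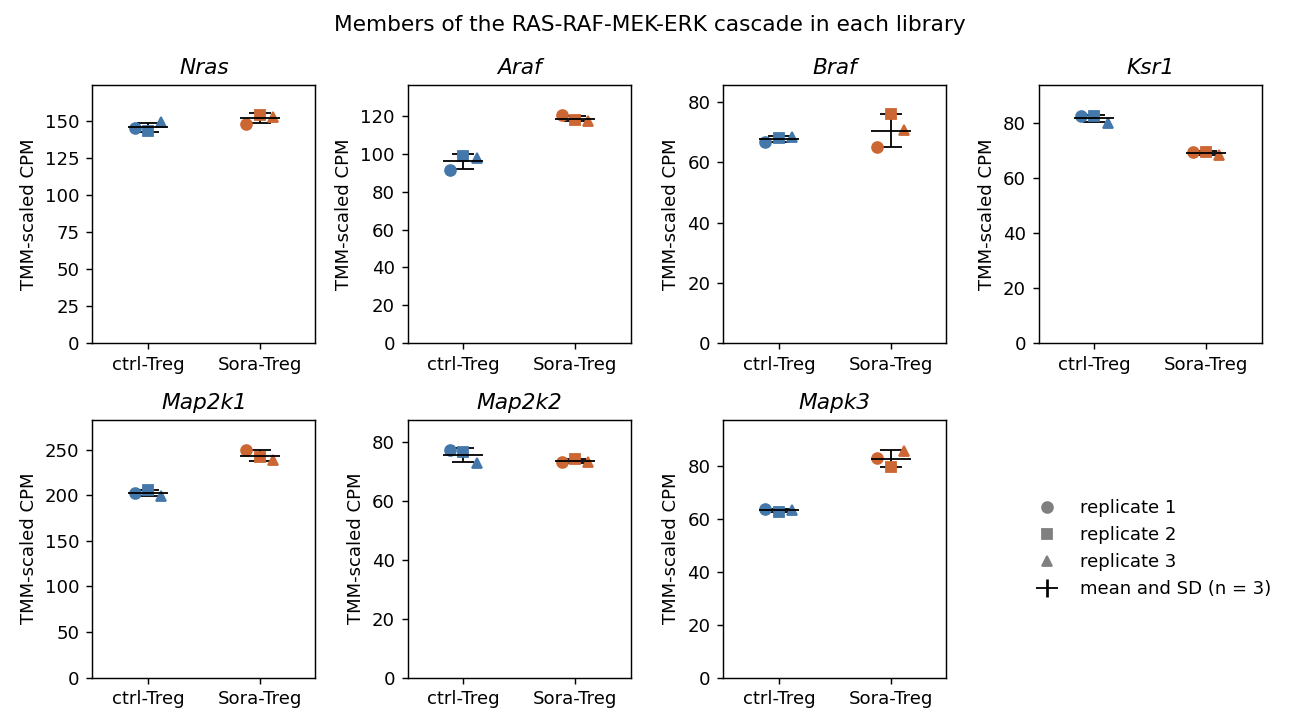
TMM-scaled CPM (vertical axes, from 0) of each of the 7 genes in the 3 ctrl-Treg and 3 Sora-Treg libraries, with symbols for replicate numbers and bars for mean and SD. Araf, Map2k1 and Mapk3 lay higher in every Sora-Treg library than in any ctrl-Treg library, Ksr1 lay lower, and the ranges of Nras, Braf and Map2k2 overlapped.

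Nras (chromosome 3, 103058285 to 103067914, RefSeq on GRCm38.p6, as for all coordinates here) is the RAS GTPase at the top of the cascade. Its level in CPM was 145, 143 and 149 without Sora and 148, 154 and 153 with Sora. The 2 ranges overlapped, since Sora-Treg replicate 1 lay below control replicate 3. The means were 146 ± 3.01 and 152 ± 3.34 CPM (SD, n = 3). With edgeR the log2 fold change was 0.059 (SE 0.033, adjusted p = 0.132), and its 95% interval ran from -0.0097 to 0.13. A pseudogene copy, Nras-ps2, lies elsewhere in the genome, and how reads were shared with it is not known.

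The RAF kinases, which phosphorylate MEK, did not move alike. Araf (chromosome X, 20797707 to 20860521) had 91.8, 98.9 and 97.9 CPM in ctrl-Treg and 121, 118 and 118 CPM in Sora-Treg libraries. Every Sora-Treg library was above every ctrl-Treg library, and the 3 Sora-Treg values were closer together than the ctrl-Treg values. The mean went from 96.2 ± 3.85 to 119 ± 1.52 CPM (SD, n = 3). With edgeR Araf had a log2 fold change of 0.30 (SE 0.04, adjusted p = 2.58e-07) and a 95% interval from 0.23 to 0.38. Braf (chromosome 6, 39603231 to 39725658), the RAF protein with the highest kinase activity, had 66.8, 68.1 and 68.5 CPM in ctrl-Treg and 65.1, 76.0 and 70.6 CPM in Sora-Treg libraries. Sora-Treg replicate 1 was the lowest of the 6 libraries and Sora-Treg replicate 2 the highest, so that the ctrl-Treg values lay inside the Sora-Treg range. The means were 67.8 ± 0.884 and 70.6 ± 5.43 CPM (SD, n = 3). The log2 fold change by edgeR was 0.058 (SE 0.048, adjusted p = 0.305), with a 95% interval from -0.041 to 0.16. Without Sora-Treg replicate 1 the log2 fold change of Braf was 0.11 (edgeR adjusted p = 0.0334, against 0.0334 to 0.930 over all alternatives). Araf shares 11 bases at its end with Syn1, which had between 24 and 122 counts per library, and the Braf locus overlaps the long noncoding RNA Gm34389, which had between 10 and 20. These counts were far below those of the kinase genes. The Araf locus also shares 4612 bases with the pseudogene Gm15028 and 105 with the small nuclear RNA Gm26065. The Braf locus shares 490 bases with the pseudogene Fth-ps2. No counts were given for these other genes, and how reads were shared with them is not known.

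The promoter windows of the RAF pair are shown because the genes encode kinases of the same step and differed in response. Each runs from 250 bases before to 50 bases after an annotated start in RefSeq (GRCm38.p6), at chrX:20848293-20848592 on the plus strand for Araf, a start inside the gene interval given above, and chr6:39725414-39725713 on the minus strand for Braf, and is written 5′ to 3′ along the gene. Capitals mark matches on either strand to 6 motifs: the GC box GGGCGG, the ETS core CCGGAAG, the cyclic AMP response element TGACGTCA, the CCAAT box CCAAT, the TATA box TATAAA and the E-box CACGTG.
Araf: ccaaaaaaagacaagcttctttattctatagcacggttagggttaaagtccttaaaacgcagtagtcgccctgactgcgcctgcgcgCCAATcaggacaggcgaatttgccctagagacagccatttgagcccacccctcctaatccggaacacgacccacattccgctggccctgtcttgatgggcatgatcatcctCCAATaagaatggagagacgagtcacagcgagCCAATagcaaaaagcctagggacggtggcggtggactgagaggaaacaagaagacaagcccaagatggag
Braf: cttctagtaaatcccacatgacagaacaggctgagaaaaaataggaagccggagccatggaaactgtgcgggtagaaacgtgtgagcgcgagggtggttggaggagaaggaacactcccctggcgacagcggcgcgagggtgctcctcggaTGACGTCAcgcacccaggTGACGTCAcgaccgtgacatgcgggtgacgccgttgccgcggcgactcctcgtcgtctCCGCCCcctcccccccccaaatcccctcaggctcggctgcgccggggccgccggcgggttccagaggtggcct
The Araf window held 3 CCAAT boxes and no other of these motifs. The Braf window held 2 copies of TGACGTCA and 1 GC box. Among 32851 promoter windows of this length, 37.4% held CCAAT, 1.79% held TGACGTCA and 35.7% held GGGCGG. The Araf window had 14 CpG dinucleotides and the Braf window 30, against a median of 7 over all windows. No motif in any window overlapped a match to a different motif. A match is a description of letters and not of a bound factor.

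Ksr1 (chromosome 11, 79013440 to 79146533), the scaffold, was the only member that fell. It had 82.7, 82.5 and 80.2 CPM in ctrl-Treg and 69.6, 69.6 and 68.5 CPM in Sora-Treg libraries. The groups did not overlap, and the spread within each was small. The mean went from 81.8 ± 1.38 to 69.2 ± 0.608 CPM (SD, n = 3). With edgeR Ksr1 had a log2 fold change of -0.24 (SE 0.04, adjusted p = 1.06e-05) and a 95% interval from -0.32 to -0.16. The Ksr1 locus overlaps the long noncoding RNA Gm11201, which had between 7 and 24 counts per library. Ksr2, the related scaffold, was scarce, at 0.367 ± 0.0897 and 0.721 ± 0.215 CPM without and with Sora (SD, n = 3; edgeR adjusted p = 0.0503).

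The MEK kinases, which phosphorylate ERK, were also unlike. Map2k1 (chromosome 9, 64185769 to 64253605) had 202, 206 and 199.5 CPM in ctrl-Treg and 249.9, 242 and 238 CPM in Sora-Treg libraries. The lowest Sora-Treg library was well above the highest ctrl-Treg library. The mean went from 202 ± 3.15 to 243 ± 5.97 CPM (SD, n = 3). With edgeR Map2k1 had a log2 fold change of 0.27 (SE 0.03, adjusted p = 7.88e-08) and a 95% interval from 0.20 to 0.33. Map2k2 (chromosome 10, 81105913 to 81124697) had 77.0, 76.5 and 72.6 CPM in ctrl-Treg and 73.0, 74.2 and 73.0 CPM in Sora-Treg libraries. The lowest value was in control replicate 3, and all 3 Sora-Treg values lay within the ctrl-Treg range. The means were 75.4 ± 2.40 and 73.4 ± 0.686 CPM (SD, n = 3). The log2 fold change by edgeR was -0.040 (SE 0.040, adjusted p = 0.406), with a 95% interval from -0.12 to 0.043. The Map2k1 locus overlaps Uchl4, which had between 15 and 29 counts per library.

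The promoter windows of the MEK pair, with the same marking, are at chr9:64253556-64253855 on the minus strand and chr10:81105665-81105964 on the plus strand. They are shown for the same reason.
Map2k1: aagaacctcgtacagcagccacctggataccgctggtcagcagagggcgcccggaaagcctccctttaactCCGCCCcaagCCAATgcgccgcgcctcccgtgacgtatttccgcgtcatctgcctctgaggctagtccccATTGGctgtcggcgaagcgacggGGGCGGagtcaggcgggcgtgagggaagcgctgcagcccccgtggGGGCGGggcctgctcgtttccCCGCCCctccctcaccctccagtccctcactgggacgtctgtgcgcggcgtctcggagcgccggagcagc
Map2k2: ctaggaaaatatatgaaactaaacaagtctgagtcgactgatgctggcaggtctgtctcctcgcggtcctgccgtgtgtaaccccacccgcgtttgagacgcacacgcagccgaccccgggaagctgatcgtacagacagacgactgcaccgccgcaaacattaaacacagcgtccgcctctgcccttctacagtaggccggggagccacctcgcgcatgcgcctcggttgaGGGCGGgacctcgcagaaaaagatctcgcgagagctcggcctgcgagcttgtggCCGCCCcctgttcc
The Map2k1 window held 4 GC boxes and 2 CCAAT boxes, and the Map2k2 window held 2 GC boxes. They had 31 and 28 CpG dinucleotides. CCAAT stood in the windows of Araf and Map2k1, which rose, and not in those of Braf and Map2k2. It also stood once in the upstream window of Ksr1, which fell, and in 37.4% of all windows. No window was given for Mapk3, which rose most. A link between these motifs and the changes was not tested. In 6 of the 7 members for which a window was given, none held the ETS core, which 8.86% of all windows held, or the TATA box, which 13.6% held. CACGTG was in the Nras window only, and in 7.15% of all windows.

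Mapk3 (chromosome 7, 126759626 to 126765816) encodes ERK1, the kinase that carries the signal from the cascade to its substrates, and had the highest log2 fold change of the 7. It had 63.7, 62.6 and 63.4 CPM in ctrl-Treg and 82.9, 79.5 and 85.9 CPM in Sora-Treg libraries. The ctrl-Treg libraries were nearly level, and the Sora-Treg libraries lay clear above them. The mean went from 63.3 ± 0.600 to 82.8 ± 3.16 CPM (SD, n = 3). With edgeR Mapk3 had a log2 fold change of 0.39 (SE 0.04, adjusted p = 2.35e-08) and a 95% interval from 0.30 to 0.47. RefSeq lists no gene that overlaps Mapk3, Nras or Map2k2.

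Small changes such as these depend on how libraries are scaled to each other. TMM assumes that most genes do not change. When libraries were scaled by their totals alone, the median over all genes tested moved by -0.12 on the log2 scale, and that of the 7 members went from 0.059 to -0.057. Under that scaling the rise was 0.19 for Araf, 0.15 for Map2k1 and 0.27 for Mapk3, and the change of Ksr1 was -0.36, all still past the threshold (edgeR adjusted p = 1.04e-04, 1.48e-04, 3.57e-06 and 2.23e-08). Map2k2 was then called lower, with a log2 fold change of -0.16 (edgeR adjusted p = 0.00171, against 0.00171 to 0.868 over all alternatives), which made 3 members higher and 2 lower. Over all genes this scaling called 21.3% higher and 41.7% lower (63% in either direction). Nras and Braf changed sign, to -0.057 each, and neither passed. The direction of Nras and Braf is therefore not fixed by these data. Map2k2 was below 0 under TMM and under totals, but its call depended on the scaling. Among the alternatives, it turned above 0 only without control replicates 1 and 2, as given below.

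**Figure D2:**
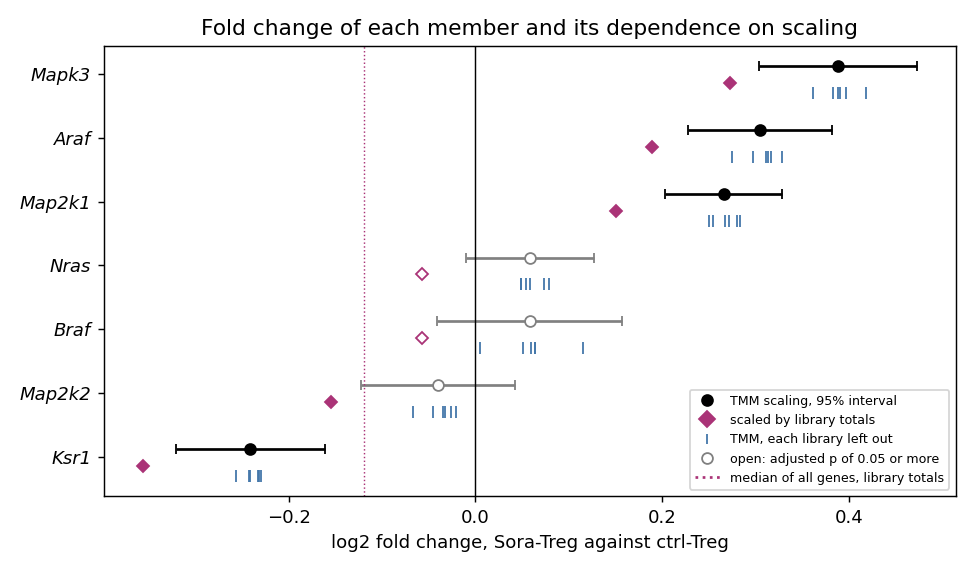
Log2 fold change (horizontal axis) of each member, with 95% intervals under TMM scaling (circles), values with libraries scaled by their totals (diamonds), and values with each library left out (ticks). Open symbols have an adjusted p of 0.05 or more, and the dotted line is the median of all genes under scaling by totals. Araf, Map2k1 and Mapk3 stay above 0 and Ksr1 below 0 in every case, whereas the 95% intervals of the other 3 include 0. Scaled by totals, Map2k2 is at -0.16 and called lower.

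Control replicates 1 and 2 held more myeloid transcript than the other libraries, so the members were also fitted without both of them, which leaves a single ctrl-Treg library that is assumed to vary like the Sora-Treg libraries. The log2 fold changes were then 0.28 for Araf, 0.29 for Map2k1, 0.38 for Mapk3 and -0.21 for Ksr1, all called (edgeR adjusted p = 3.90e-04, 4.95e-05, 5.84e-05 and 0.00860). Map2k2 turned to 0.016 (edgeR adjusted p = 0.868).

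Ratios between members within a library do not depend on scaling between libraries. They were taken on FPKM, which divides the count by the length of the gene and the library total. The ratio of Araf to Braf was 2.06, 2.18 and 2.14 in ctrl-Treg and 2.77, 2.33 and 2.50 in Sora-Treg libraries. Its mean was 2.13 ± 0.0606 against 2.53 ± 0.224 (SD, n = 3), a difference of 0.25 on the log2 scale. The ratio of Map2k1 to Map2k2 was 2.19, 2.24 and 2.29 in ctrl-Treg and 2.86, 2.72 and 2.72 in Sora-Treg libraries. Its mean was 2.24 ± 0.0518 against 2.77 ± 0.0774 (SD, n = 3), a difference of 0.30 on the log2 scale. The ratio of Mapk3 to Map2k2, the last step against a kinase above it, was 1.18, 1.17 and 1.25 in ctrl-Treg and 1.63, 1.54 and 1.68 in Sora-Treg libraries. Its mean was 1.20 ± 0.0425 against 1.61 ± 0.0749 (SD, n = 3), a difference of 0.43 on the log2 scale. Each of the 3 ratios was higher in every Sora-Treg library than in any ctrl-Treg library. The exact permutation test (two-sided) gave p = 0.1 for each, adjusted p = 0.1 over the 3, which is the smallest value that 3 libraries against 3 allow. Each of the 3 ratios sets a member called higher over a member not called, so they restate those calls. No ratio of Mapk3 to Map2k1, the more abundant MEK gene, was taken. With edgeR the log2 fold change of Map2k1 minus that of Mapk3 was -0.12, against -0.43 for Map2k2 minus Mapk3.

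**Figure D3:**
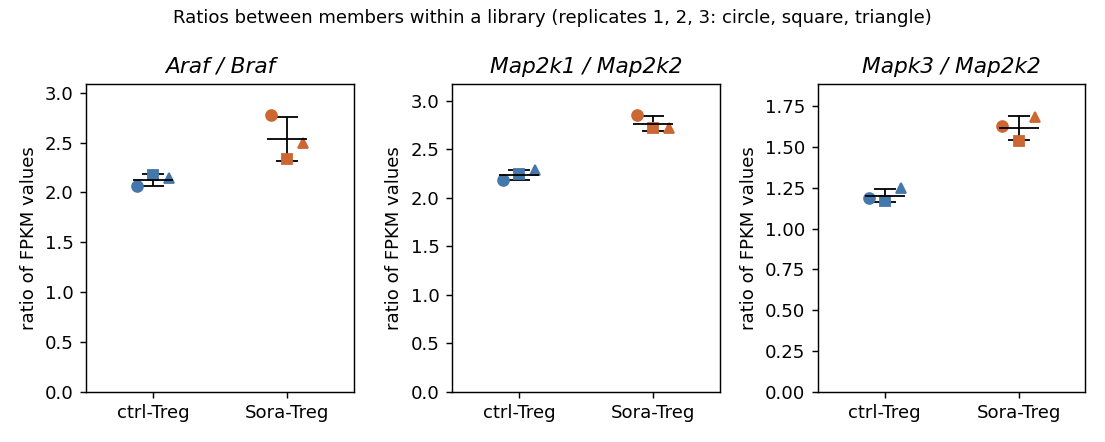
Ratio of FPKM values (vertical axes, from 0) between pairs of members in each library, with bars for mean and SD (n = 3). All 3 ratios lay higher in each Sora-Treg library than in any ctrl-Treg library, and the Sora-Treg values of Araf to Braf were the most spread.

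On the FPKM scale, levels of different genes can be set beside each other. In ctrl-Treg cells Map2k1 was highest at 69.3 ± 1.01 FPKM, followed by Mapk3 at 37.2 ± 0.459, Nras at 31.6 ± 0.667, Map2k2 at 30.9 ± 1.02, Araf at 14.9 ± 0.551, Braf at 7.01 ± 0.0731 and Ksr1 at 6.42 ± 0.117 (SD, n = 3). Nras and Map2k2 overlapped and did not differ beyond their spread, and all other neighbors in this order were apart in every library. The order was the same in Sora-Treg cells, where Map2k1 was at 76.9 ± 2.01, Mapk3 at 44.9 ± 1.74, Nras at 30.4 ± 0.613, Map2k2 at 27.8 ± 0.227, Araf at 16.99 ± 0.246, Braf at 6.73 ± 0.506 and Ksr1 at 5.02 ± 0.0473 FPKM, with no overlap between neighbors. FPKM carries the scaling by totals, so a fold between groups on it is smaller for genes that rose than the CPM values above.

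The order rests on the length used for each gene. The FPKM values imply a length of 13255 bases for Ksr1 and 6719 for Araf, whereas the longest coding transcripts in GENCODE M21 have 5495 and 2854 bases. Implied lengths were nearer to that of the longest transcript for Mapk3 (1772 and 1800), Map2k2 (2537 and 2405), Map2k1 (3042 and 2436), Nras (4803 and 4470) and Braf (10074 and 9728). Per kilobase of the longest coding transcript, a length chosen after the values were seen, the ctrl-Treg levels were 83.1 CPM for Map2k1, 35.1 for Mapk3, 33.7 for Araf, 32.6 for Nras, 31.4 for Map2k2, 14.9 for Ksr1 and 6.97 for Braf. Map2k1 stayed first and Mapk3 second, but Araf moved level with Nras and Map2k2, and Ksr1 moved above Braf. The ratio of Araf to Braf depends on this choice in size, though not its change between groups.

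The gene with the most similar profile over the 6 libraries was found for each member by the Euclidean distance between centered log2 CPM values, among 7774 genes whose log2 CPM averaged 4 or more. The nearest were Dtx3l for Nras (distance 0.025), Pcif1 for Araf (0.044), Usp9x for Braf (0.044), Mrpl15 for Ksr1 (0.039), Ubl5 for Map2k1 (0.024), Smim15 for Map2k2 (0.030) and Psenen for Mapk3 (0.032), with medians over all compared genes between 0.30 and 0.53. Between members the closest pair was Araf and Map2k1 (0.097) and the most distant Ksr1 and Mapk3 (0.77). These distances share the group difference and the 6 libraries, and they are descriptive.

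Other genes of the pathway were read from 7 lists by role, and changes went both ways in each. The counts here and in the next paragraph stand beside 29.7% of all genes tested called higher and 29.9% lower with TMM scaling. With scaling by totals these shares were 21.3% and 41.7%. Of 12 tested RAS activators and adaptors, 5 were higher and 2 lower (median log2 fold change 0.16). Rasgrp1, the exchange factor that links the T cell receptor to RAS, was the most abundant, with means of 303 ± 4.30 and 362 ± 10.1 CPM (SD, n = 3) without and with Sora, and rose by 0.26 on the log2 scale (SE 0.03), or by 0.14 with scaling by totals. The related Rasgrp4, the adaptor Gab2 and the exchange factor Sos2 rose by 1.28, 1.52 and 0.42 on the log2 scale. Of 10 GTPase-activating proteins, which switch RAS off, 4 were higher and 5 lower (median -0.051). Rasa4 rose by 1.04 and the most abundant, Rasal3, by 0.19 (0.070 with scaling by totals, edgeR adjusted p = 0.0333), while Rasa3 changed by -0.70. Of 9 genes for lipid modification, transport and turnover of RAS, 2 were higher (Golga7 at 0.65 and Zdhhc9 at 0.61, which act together to palmitoylate RAS) and 3 lower, among them Pde6d, a carrier of farnesylated RAS, at -0.57 (median -0.062). Scaling by totals made this 2 higher and 5 lower. Of the RAS-related genes Rras and Rras2, Rras rose by 1.02 (SE 0.09), with means of 11.8 ± 0.335 and 23.9 ± 3.04 CPM (SD, n = 3). Rras2 was at -0.053 (SE 0.046, edgeR adjusted p = 0.338), but at -0.17 and called with scaling by totals (edgeR adjusted p = 0.00293).

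Of 28 scaffolds and modulators of RAF, MEK and ERK, 7 were higher and 9 lower (median 0.025), or 4 and 14 with scaling by totals. Arrb1, which encodes a β-arrestin that can hold the cascade at internalized receptors, rose by 1.58 on the log2 scale, with means of 231 ± 0.286 and 691 ± 12.6 CPM (SD, n = 3). The 14-3-3 gene Ywhah rose by 0.30, and Hsp90ab1, a chaperone of RAF kinases, changed by -0.20, or by 0.19 and -0.32 with scaling by totals. Of 10 ERK substrates, 4 were higher and 2 lower (median 0.084), or 3 and 4 with scaling by totals. The kinase genes Rps6ka4 and Rps6ka3 rose by 0.44 and 0.35, the ETS factor Elk4 changed by -0.30, and the most abundant, Mknk2, was at -0.021 (edgeR adjusted p = 0.567), or at -0.14 and called with scaling by totals (edgeR adjusted p = 3.38e-04). Of 9 tested genes whose transcription follows ERK activity in many cell types, 1 was higher and 6 were lower, with a median log2 fold change of -0.99 against -0.0035 over all genes tested. Ccnd1, a cyclin, changed by -3.74 ± 0.26 and the receptor gene Epha2 by -3.68 ± 0.20 (SE, edgeR adjusted p = 2.33e-11 and 2.18e-13), both from under 10 CPM. Spry2, Spry4, Etv4 and Etv5 were also under 10 CPM in every library, so the median of this list rests on scarce transcripts. Dusp4, an ERK phosphatase and by far the most abundant of the list, went the other way and rose by 0.69 (SE 0.03), with means of 202 ± 5.67 and 328 ± 0.576 CPM (SD, n = 3). The next most abundant, Dusp6, changed by -0.41 (SE 0.07) from a ctrl-Treg mean of 29.1 CPM. Phlda1, with a ctrl-Treg mean of 12.9 CPM, was at -0.026 (SE 0.088, edgeR adjusted p = 0.817). These transcripts do not measure ERK activity. By immunoblot, the study reports more phosphorylated ERK and MEK in CD4+ T cells given Sora under Treg-skewing conditions, a measure of protein and not of RNA. Of 12 kinases of the parallel JNK, p38 and ERK5 cascades, 4 were higher and 5 lower (median -0.14), or 1 and 6 with scaling by totals. The p38 kinase gene Mapk14 and its activators Map2k3 and Map2k6 changed by -0.50, -0.50 and -0.67 on the log2 scale. For each of these pathway genes given as risen or changed, the edgeR adjusted p with TMM scaling was 3.04e-05 or lower.

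**Figure D4:**
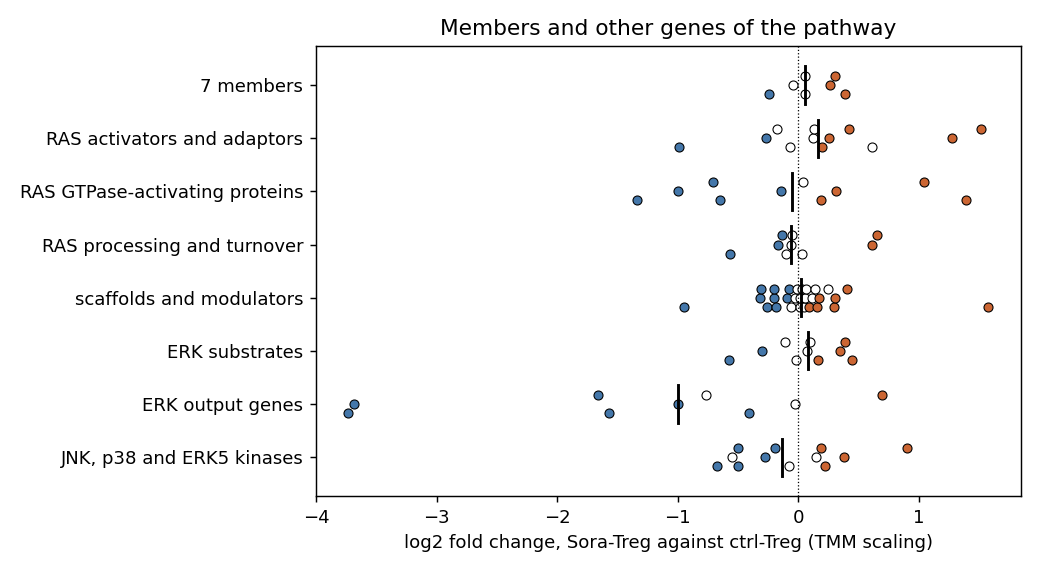
Log2 fold change (horizontal axis, TMM scaling) of the 7 members and of the tested genes of each pathway list, 1 circle per gene, filled where the adjusted p was under 0.05 (orange higher, blue lower), with a vertical bar at the median. The members lie between -0.24 and 0.39, a narrower range than that of any of the 7 lists. The list of ERK output genes, most of them scarce transcripts, has the lowest median, at -0.99.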

How the data were processed

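RNA was sequenced from 3 ctrl-Treg and 3 Sora-Treg libraries, grouped and numbered by their titles. Raw counts by gene symbol and FPKM values of these libraries were deposited by the authors. The study's methods name Bowtie2, GRCm38 and an expectation maximization step, whereas the submitters' processing notes name fastp, HISAT2, HTSeq, DESeq2, R 3.2.0 and GRCm39, and the strand setting and annotation release are not given in the sources used here. Each deposited FPKM value equaled the count divided by a length per gene and the library total (largest relative spread of that length 1.64e-06 over 15431 genes). Coordinates and promoters are from RefSeq on GRCm38.p6 and describe that reference only.

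Counts were tested with edgeR 4.0.16 in R 4.3.3 (TMM, filterByExpr, quasi-likelihood F-test, two-sided, Benjamini-Hochberg adjustment over 13463 genes, threshold 0.05). The SE is the one implied by the F statistic. The biological coefficient of variation was 4.29%, and 3 counts corresponded to between 0.0795 and 0.0976 CPM per library, which covers counting error only. Alternatives were RLE, upper quartile and library-total scaling, a minimum of 1 count in any sample, DESeq2 1.42.0, a robust dispersion fit, a block for replicate number, omission of each library in turn, and limma 3.58.1 on log2(FPKM + 1) or log2(FPKM + 0.1) with a mean FPKM of at least 0.5, or without that filter. Leaving out control replicates 1 and 2 together was added after the data had been seen. Scripts were tested on simulated counts.

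The members, lists and tests were chosen with earlier results of these data known, so no list was tested as a set. Genes named were the members, their tested paralogs, in each list the 3 genes with the smallest adjusted p and the most abundant gene, and the gene nearest to each member in profile. The other tested ERK output genes were named as well, to give their levels. A few genes are not reported here.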

Additional observations from a re-analysis of the deposited data

How the results depend on the processing

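The direction and the call of Araf, Ksr1, Map2k1 and Mapk3 were the same under all 17 alternatives, with log2 fold changes from 0.18 to 0.33, from -0.36 to -0.21, from 0.15 to 0.29 and from 0.27 to 0.42. The count of members higher was 3 throughout, except without Sora-Treg replicate 1, where Braf made it 4. The other members depended on scaling. With library totals alone, and then with limma on log2(FPKM + 1), on log2(FPKM + 0.1) and on unfiltered log2(FPKM + 1), Nras was at -0.0568, -0.0554, -0.0570 and -0.0554, Braf at -0.0571, -0.0525, -0.0596 and -0.0525, and Map2k2 at -0.155, -0.149, -0.153 and -0.149, called in each case, so that 2 members were lower. The median of the members under these 4 was -0.0568, -0.0525, -0.0570 and -0.0525. All 4 rest on scaling by library totals, which FPKM carries. The shift of the median over all genes by -0.12 was computed for edgeR with library totals only. The same 4 called 6, 6, 6 and 5 paralogs of the core, against 3 of 7 tested with TMM. Over all genes tested, 63% were called with library totals and 59.6% with TMM. The number tested differed with limma, since its filter on mean FPKM left out scarce paralogs such as Ksr2. With a library left out, Braf ranged from 0.0054 to 0.11, called without Sora-Treg replicate 1, and the median of the members ranged from 0.049 to 0.11, the highest again without that library. Without control replicates 1 and 2, which leaves a single ctrl-Treg library, Map2k2 was at 0.0157. Fewer genes were then called among the core paralogs and in every list except RAS activators and adaptors, which had more. The GTPase-activating proteins called lower were among those lost. The cause of the last changes was not tested.

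Replicate numbers gave no sign of pairing, with correlations between the deviations of same-numbered libraries of -0.044, 0.059 and 0.030. With the replicate block the log2 fold changes were 0.31 for Araf, -0.24 for Ksr1, 0.27 for Map2k1, 0.39 for Mapk3, 0.058 for Nras, 0.056 for Braf and -0.039 for Map2k2, and the block changed no call of a member. Within same-numbered pairs an exact sign-flip test of each ratio gave p = 0.25, the smallest that 3 pairs allow. With 3 libraries a group, changes of Nras, Braf and Map2k2 within the 95% intervals given above are not excluded.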
